A study of Homo sapiens with 4 samples.

Results

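The HLA class I genes of OVCA420 cells were examined together with the genes that load them and a regulator of their transcription, over a course of TGF-β1 treatment. The members were found by gene symbol, from a list drawn up with earlier results of these data known. They are 9 of the 33694 genes in the count matrices, namely *HLA-B*, *HLA-C*, *HLA-E* and *HLA-F* (heavy chains), *B2M* (light chain), *TAP1*, *TAP2* and *TAPBP* (peptide loading) and *NLRC5* (regulator). OVCA420 cells are a line of epithelial ovarian cancer, and droplet-based single-cell RNA-seq was carried out on cells left untreated (Ctrl) or given 10 ng/mL TGF-β1 for 1, 3 or 7 days. TGF-β1 was used to drive epithelial-mesenchymal transition (EMT), fresh cytokine was added through the course, and all cells were harvested together. Each time point is 1 library of 1 cell line grown alone, without T cells, NK cells or stroma. No time point therefore has a replicate, no difference was tested, and every interval given here is a 95% counting interval, which covers counting error only.

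HLA class I molecules carry short peptides from the cytosol to the cell surface, where CD8+ T cells and NK cells read them. The heavy chain folds in the endoplasmic reticulum with β2-microglobulin, peptides are pumped in by the TAP1-TAP2 transporter, and tapasin holds the empty molecule at the transporter until a peptide fits. Interferon-γ is the classical inducer of the whole set of genes, and NLRC5 is a transactivator of class I genes that acts at a shared promoter module.

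Filtering retained 933, 937, 705 and 569 cells from Ctrl to 7-day, with 25382817 to 32949874 UMIs (unique molecular identifiers, the counted transcripts) per library. Only part of the barcodes of each library was analysed here, so these sums are not the full depth. Median depth per cell was 30270, 32393, 43553 and 43382 UMIs in the same order, and the mitochondrial share was 6.22% to 8.31%. The share of cells in G1 was 18.5%, 77.3%, 43.4% and 33.4% from Ctrl to 7-day. Of the retained barcodes, 23 occurred in more than 1 library. The 7 epithelial carcinoma markers were all detected in every library, at a summed 3119 to 4541 CPM (UMIs scaled to 1000000 per library), carried by *KRT8*, *KRT18*, *KRT19* and *EPCAM*. Between Ctrl and 7-day *KRT19* went from 1178 to 581 CPM, *KRT8* from 1075 to 865, *EPCAM* from 331 to 297 and *KRT18* from 841 to 1376. *MUC16* had 89 UMIs in Ctrl and 14, 4 and 5 after 1, 3 and 7 days. *PAX8* and *WFDC2*, markers of many ovarian carcinomas, had at most 10 UMIs in any library, and *WFDC2* had only 1 at 3-day. The 7 leukocyte markers summed to 5.07, 5.98, 8.87 and 14.1 CPM from Ctrl to 7-day, most of it *CD79A* (2.80, 2.70, 3.98 and 7.88 CPM) and *CD68* (1.53, 3.00, 4.73 and 6.19 CPM), while *PTPRC* (CD45) had 2 UMIs in Ctrl and 0 at 1, 3 and 7 days and *NKG7* had 0 in all libraries. The 3 endothelial markers summed to 5.40 CPM (Ctrl) against 0.31 to 0.47 CPM under TGF-β1, and the 3 fibroblast markers to 0.28 to 1.37 CPM. The endothelial sum in Ctrl was nearly all *CDH5* (161 UMIs), with 1 UMI of *VWF* and 0 of *PECAM1*. No cell type that lacks class I genes is present in these libraries, so the share of UMIs that free RNA adds to a cell could not be measured.

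Promoters of 7 of the 9 members were found in the RefSeq table for GRCh38.p14, each from 250 bases before to 50 bases after an annotated transcription start, with *TAP1* listed at 2 starts. Printed here are 5 of them, those of the heavy chains with the most UMIs, of the light chain and of the loading genes with the highest 7-day ratios to Ctrl. Capitals mark matches, on either strand, to 5 motifs: the interferon-stimulated response element (ISRE, read as TTTC and TTTC with any 2 bases between them), the NF-kB site (GGG and TTCCC with any 2 bases between them), the GAS site (TTCNNNGAA), the core of the cAMP response element (TGACG) and the CCAAT box (CCAAT).
HLA-B promoter, chr6:31357130-31357429, minus strand: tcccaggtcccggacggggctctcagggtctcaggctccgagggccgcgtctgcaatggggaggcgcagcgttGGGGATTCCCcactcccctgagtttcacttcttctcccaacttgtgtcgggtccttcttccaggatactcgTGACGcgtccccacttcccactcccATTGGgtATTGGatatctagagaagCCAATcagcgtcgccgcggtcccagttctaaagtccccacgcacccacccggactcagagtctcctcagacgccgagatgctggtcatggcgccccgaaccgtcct
HLA-C promoter, chr6:31272043-31272342, minus strand: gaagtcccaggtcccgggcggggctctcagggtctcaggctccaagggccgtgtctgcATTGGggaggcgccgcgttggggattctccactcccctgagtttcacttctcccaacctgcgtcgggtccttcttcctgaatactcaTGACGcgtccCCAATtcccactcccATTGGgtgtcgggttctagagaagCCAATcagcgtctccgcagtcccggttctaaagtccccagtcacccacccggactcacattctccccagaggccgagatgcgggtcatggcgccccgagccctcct
B2M promoter, chr15:44711267-44711566, plus strand: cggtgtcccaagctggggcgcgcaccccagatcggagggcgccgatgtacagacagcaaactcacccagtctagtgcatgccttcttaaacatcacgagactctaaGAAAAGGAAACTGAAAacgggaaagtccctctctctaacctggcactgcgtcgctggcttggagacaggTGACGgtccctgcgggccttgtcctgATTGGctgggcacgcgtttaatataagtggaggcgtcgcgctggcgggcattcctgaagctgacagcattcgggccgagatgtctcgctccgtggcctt
TAP1 promoter, chr6:32853655-32853954, minus strand: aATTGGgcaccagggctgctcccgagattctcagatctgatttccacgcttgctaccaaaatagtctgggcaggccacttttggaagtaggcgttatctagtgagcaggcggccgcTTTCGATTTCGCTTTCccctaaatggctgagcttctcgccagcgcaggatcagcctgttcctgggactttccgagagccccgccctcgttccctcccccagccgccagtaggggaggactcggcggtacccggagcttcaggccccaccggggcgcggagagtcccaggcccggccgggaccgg
TAPBP promoter, chr6:33314029-33314328, minus strand: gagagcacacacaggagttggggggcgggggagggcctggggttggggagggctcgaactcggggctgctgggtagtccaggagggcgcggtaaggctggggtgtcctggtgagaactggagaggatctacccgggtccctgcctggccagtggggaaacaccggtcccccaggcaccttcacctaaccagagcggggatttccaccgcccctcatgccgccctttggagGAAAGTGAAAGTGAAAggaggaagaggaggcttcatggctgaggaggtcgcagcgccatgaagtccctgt

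The promoters of *HLA-B* and *HLA-C* were 88.5% identical over 304 aligned positions, and each was 78.5% identical to that of *HLA-F*, whereas every pair that included *B2M* or a loading gene was between 39.6% and 44.9% identical. The NF-kB letters, in the form searched, were found in *HLA-B* alone, at position -177 from the start, and in 2.17% of the 35116 promoters of this length. *HLA-C* did not hold them. Near forms, such as gggactttcc in *TAP1*, ggggatttcc in *TAPBP* and ggaaagtccc in *B2M*, were not searched for and are in lower case. The ISRE letters occur in 3.57% of all promoters and were found in *HLA-F*, *B2M*, the first *TAP1* entry, *TAP2* and *TAPBP*, with an overlapping pair of matches in *B2M*, *TAP1* and *TAPBP*. The GAS letters, in 7.66% of all promoters, were found in the second *TAP1* entry. The cAMP core occurs in 24.6% of promoters and was present in *HLA-B*, *HLA-C*, *B2M* and *TAP2*, and the CCAAT box occurs in 34.6% and was present in *HLA-B*, *HLA-C*, *HLA-F*, *B2M* and the first *TAP1* entry. The E-box CANNTG, bound by EMT factors of the SNAI and ZEB families, and the SMAD half-site CAGAC are not capitalised. The E-box was found in *B2M* alone (68.7% of all promoters), and the SMAD half-site in *HLA-B*, *HLA-C*, *HLA-F*, *B2M*, the first *TAP1* entry and *TAP2* (45.3% of all promoters). Such matches describe letters and are not evidence of binding in these cells. The lack of a match does not show that a site is absent, since sites can depart from these letters.

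Heavy chains were assessed first. Summed over the 4 genes, heavy-chain transcripts were at 222, 338, 434 and 547 CPM in the Ctrl, 1-day, 3-day and 7-day libraries. The log2 ratio to Ctrl was 0.61 (0.56 to 0.65) at 1-day, 0.97 (0.93 to 1.01) at 3-day and 1.30 (1.26 to 1.34) at 7-day, so the sum was higher at each later time point. Among G1 cells only, the 1-day ratio was 0.38. Among cells reduced at random to 18000 UMIs, 96.4% of Ctrl and 99.6% of 7-day cells held a heavy-chain UMI, and the mean per cell was 3.97 and 10.1 UMIs.

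*HLA-C* (ENSG00000204525, chr6:31268749-31272130) encodes a classical heavy chain that is also a ligand of killer-cell immunoglobulin-like receptors. Its level was 154, 253, 327 and 398 CPM in the Ctrl, 1-day, 3-day and 7-day libraries, from 4619 to 10519 UMIs. The 4 counting intervals did not overlap, and the log2 ratio to Ctrl was 0.72 (0.67 to 0.77), 1.09 (1.04 to 1.14) and 1.37 (1.32 to 1.42). Among G1 cells only, the 1-day ratio was 0.52, below 1.5-fold.

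*HLA-B* (ENSG00000234745, chr6:31353872-31367067), the other classical heavy chain described here, took a later course. It was at 42.5, 42.2, 55.9 and 93.6 CPM in the Ctrl, 1-day, 3-day and 7-day libraries. Ctrl and 1-day did not differ beyond counting error (log2 ratio -0.01, -0.12 to 0.10) over all cells, although the 1-day ratio was -0.27 (-0.47 to -0.07) among G1, -0.43 (-0.89 to -0.0068) among S and 0.29 (0.08 to 0.49) among G2M cells. The ratio to Ctrl was 0.40 (0.29 to 0.50) at 3-day and 1.14 (1.04 to 1.24) at 7-day. Between 3-day and 7-day the log2 ratio was 0.74 (0.65 to 0.83) for *HLA-B* and 0.28 (0.24 to 0.32) for *HLA-C*. As a share of heavy-chain UMIs, *HLA-B* went from 19.1% (18.2% to 20.1%) in Ctrl to 12.5% at 1-day and 12.9% at 3-day and was 17.1% (16.5% to 17.7%) at 7-day. *HLA-C* made up 69.4%, 75.0%, 75.4% and 72.7% in the same order. The 2 genes are close paralogs and highly polymorphic, and reads that match both, or that carry alleles unlike the reference, may have been lost or assigned to the other gene, which was not tested.

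*HLA-E* (ENSG00000204592, chr6:30489509-30494194) presents leader peptides of other class I chains to the NK receptor CD94-NKG2A. Its level from Ctrl to 7-day was 22.2, 35.3, 45.2 and 49.8 CPM. The log2 ratio to Ctrl was 0.67 (0.53 to 0.81), 1.03 (0.89 to 1.16) and 1.16 (1.03 to 1.30), and 3-day and 7-day lay close together (0.14, 0.03 to 0.25). The 1-day ratio was 0.25 among G1 and 0.54 among G2M cells, below 1.5-fold in both. *HLA-F* (ENSG00000204642, chr6:29722775-29738528), a nonclassical chain that can reach the surface without peptide, was counted at only 100 to 231 UMIs per library. Its level was lowest in Ctrl (3.33 CPM) and highest at 1-day (7.01 CPM), with 5.63 and 5.87 CPM later in the course. Its ratio to Ctrl was 1.07 (0.73 to 1.43), 0.76 (0.40 to 1.12) and 0.82 (0.44 to 1.20). The 3-day library was below 1-day (-0.32, -0.60 to -0.03). The 7-day library did not differ from 1-day (-0.26, -0.56 to 0.05) or 3-day (0.06, -0.26 to 0.38) beyond counting error. Among G1 cells *HLA-F* was at 6.88 CPM at 1-day and 7.43 CPM at 7-day, with overlapping intervals. Its 3-day ratio was 0.57 among G1 cells and its 7-day ratio 0.53 among S cells, both below 1.5-fold.

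**Figure D1:**
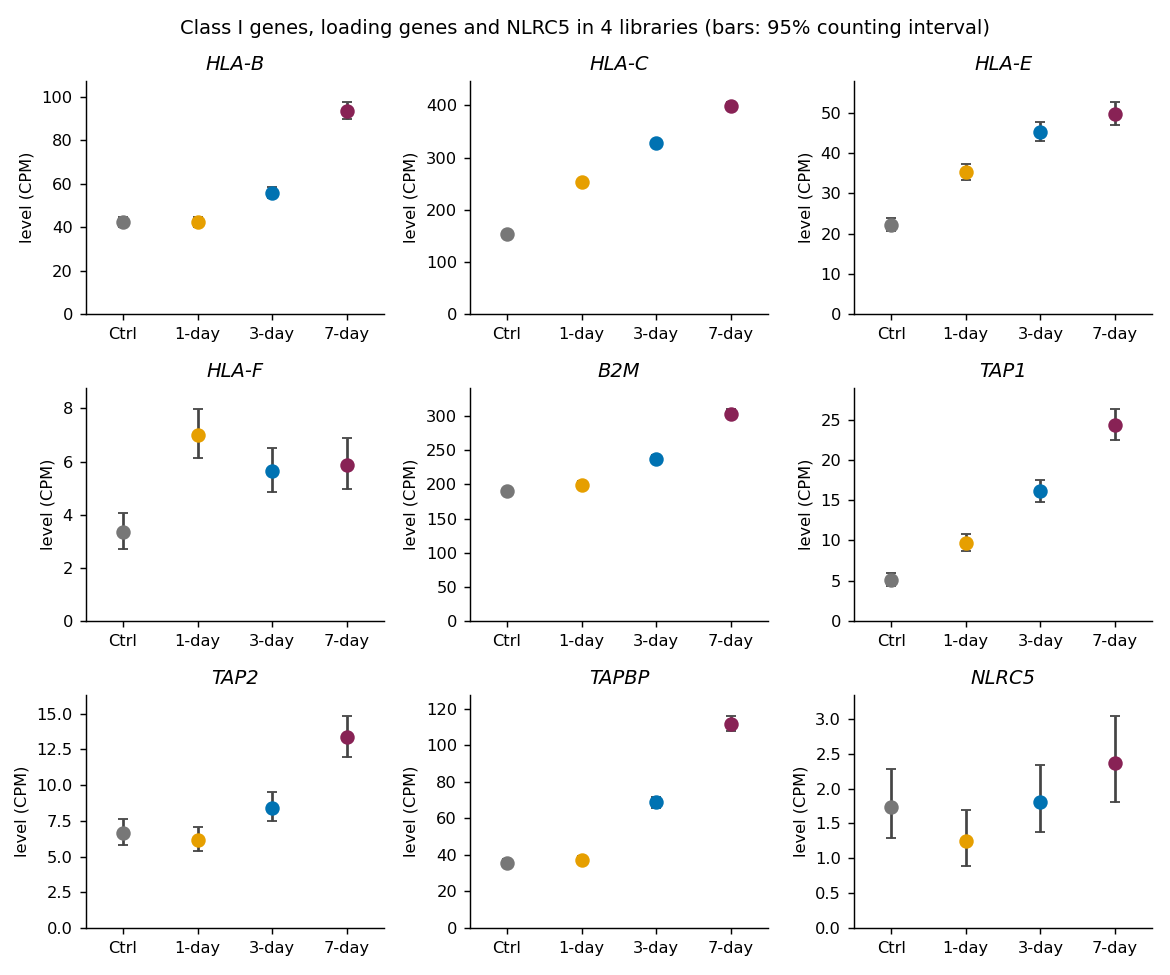
Level of each of the 9 members in CPM (vertical axes from 0, scaled per gene) in the 4 libraries (horizontal axes), with 95% counting intervals. *HLA-C*, *HLA-E*, *B2M* and *TAP1* are higher at every later time point, and *HLA-B*, *TAP2* and *TAPBP* at 1-day lie within counting error of Ctrl. *HLA-F* is highest at 1-day, and the *NLRC5* intervals of every library overlap that of Ctrl.

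The light chain was next evaluated. *B2M* (ENSG00000166710, chr15:44711358-44718851) encodes β2-microglobulin, without which the classical heavy chains do not leave the endoplasmic reticulum. It was at 189.9, 199.7, 237 and 303 CPM in the Ctrl, 1-day, 3-day and 7-day libraries. Its log2 ratio to Ctrl was 0.07 (0.02 to 0.12), 0.32 (0.27 to 0.37) and 0.68 (0.63 to 0.73). This was the smallest 7-day ratio among the 8 members other than *NLRC5*. Within phases the 1-day ratio did not leave counting error. It was -0.091 (-0.18 to 0.0039) among G1, 0.039 (-0.14 to 0.21) among S and -0.050 (-0.15 to 0.05) among G2M cells.

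Loading genes were then compared. The summed level of *TAP1*, *TAP2* and *TAPBP* was 47.5, 53.1, 93.2 and 149 CPM in the Ctrl, 1-day, 3-day and 7-day libraries. At 1-day the log2 ratio was 0.16 (0.06 to 0.26). Within phases it did not leave counting error, at -0.051 (-0.23 to 0.14) among G1, 0.17 (-0.19 to 0.51) among S and -0.044 (-0.25 to 0.16) among G2M cells. Over all cells the ratio reached 0.97 (0.88 to 1.06) at 3-day and 1.65 (1.57 to 1.74) at 7-day. The sum was thus near Ctrl after 1 day and 3.15-fold higher after 7 days. Most of its UMIs were of *TAPBP* (1070 of 1424 in Ctrl and 2838 of 3794 at 7-day), so it mainly follows that gene. The heavy chains were 2.46-fold higher at 7-day.

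*TAP1* (ENSG00000168394, chr6:32845209-32853816) and *TAP2* (ENSG00000204267, chr6:32821833-32838739) encode both subunits of one transporter but did not follow one course. *TAP1* was at 5.13, 9.68, 16.1 and 24.3 CPM from Ctrl to 7-day (154, 319, 517 and 617 UMIs), and no 2 of its intervals overlapped. Its log2 ratio to Ctrl was 0.92 (0.63 to 1.20) at 1-day, 1.65 (1.39 to 1.92) at 3-day and 2.24 (1.99 to 2.51) at 7-day, which at 4.73-fold was the highest ratio among the 9 members. Among the 46 S cells of the 1-day library, in which *TAP1* had 5 UMIs, its 1-day ratio was -0.69 (-2.36 to 0.61). *TAP2* was at 6.67, 6.19, 8.43 and 13.4 CPM. It did not differ from Ctrl beyond counting error at 1-day (-0.11, -0.40 to 0.18), and its ratio was 0.34 (0.07 to 0.61) at 3-day and 1.00 (0.75 to 1.26) at 7-day. *TAP2* at 7-day was 1.12 among S cells and 1.31 among G2M cells but 0.46 (-0.10 to 1.05) among G1 cells. Its 3-day ratio among G1 cells was -0.035 (-0.58 to 0.54).

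*TAPBP* (ENSG00000231925, chr6:33299694-33314284) encodes tapasin, which bridges the empty class I molecule to TAP. It was at 35.7, 37.2, 68.6 and 112 CPM in the Ctrl, 1-day, 3-day and 7-day libraries. Over all cells the 1-day ratio did not leave counting error (0.06, -0.06 to 0.18), and among G2M cells it was -0.38 (-0.63 to -0.13). The ratio was 0.94 (0.84 to 1.05) at 3-day and 1.65 (1.55 to 1.75) at 7-day. *TAPBP* and *TAP1* were the only members past 1.5-fold in both steps from 1-day to 3-day and from 3-day to 7-day.

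The regulator *NLRC5* (ENSG00000140853, chr16:56989485-57083531) was sparse. Its 52, 41, 58 and 60 UMIs from Ctrl to 7-day correspond to 1.73, 1.24, 1.80 and 2.36 CPM. None of the log2 ratios to Ctrl left counting error, at -0.48 (-1.11 to 0.14), 0.06 (-0.51 to 0.63) and 0.45 (-0.11 to 1.01). The 7-day library was above 1-day by 0.93 (0.33 to 1.54) over all cells. Within phases the 1-day and 7-day levels were 1.17 and 2.04 CPM in G1, 3.11 and 2.15 CPM in S and 1.08 and 2.81 CPM in G2M cells. Their intervals overlapped in each phase.

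Members were next read against all genes. A gene was called when it differed by at least 1.5-fold, its counting interval left out 0 and it had at least 50 UMIs over both libraries, and all 9 members met this minimum in each comparison. At 1-day 4 members were called higher (*HLA-C*, *HLA-E*, *HLA-F* and *TAP1*) where 17.0% of all genes were, and 0 were called lower where 22.1% were. At 3-day 5 members were called higher, with *TAPBP* added, against 18.8% of all genes, and 0 lower against 18.0%. At 7-day 8 members were called higher, every member except *NLRC5*, against 22.2% of all genes, and 0 lower against 15.3%. From 1-day to 3-day, 2 members were called higher (*TAP1* and *TAPBP*) against 14.7%, and 0 lower against 10.3%. From 3-day to 7-day, 4 were called higher (*HLA-B*, *TAP1*, *TAP2* and *TAPBP*) against 8.23%, and 0 lower against 3.51%. The median log2 ratio of the members was 0.07 at 1-day, 0.76 at 3-day and 1.14 at 7-day, and that of all genes was -0.08, -0.01 and 0.07. The comparisons with Ctrl share the Ctrl library, and the steps between treated libraries reuse the same treated libraries. A 1.5-fold call without replicates is a statement about these libraries and not about the treatment.

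**Figure D2:**
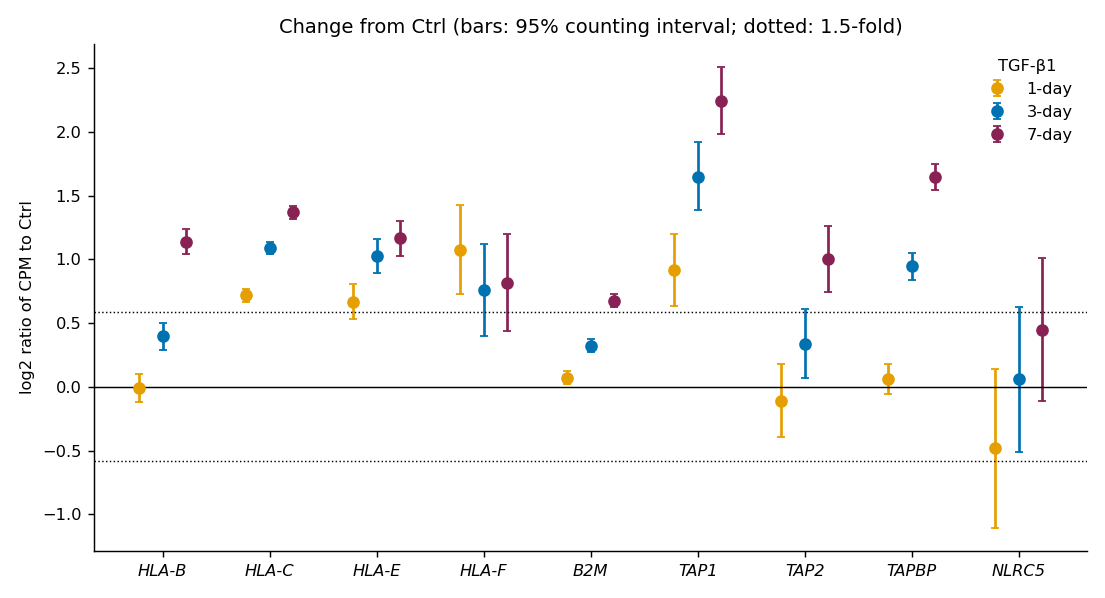
Log2 ratio of CPM to Ctrl (vertical axis) for each of the 9 members at 1, 3 and 7 days of TGF-β1, with 95% counting intervals and dotted lines at 1.5-fold. At 1-day 4 members lie above the upper line, at 7-day 8 do, and *TAP1* reaches 2.24, while the 3 intervals of *NLRC5* include 0.

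Because the libraries differed in cell cycle composition, levels were also taken within each phase. Heavy-chain transcripts were at 266 CPM in G1, 213 CPM in S and 213 CPM in G2M cells of Ctrl. At 7-day they were at 707, 493 and 450 CPM, and G1 exceeded G2M by a log2 ratio of 0.65 (0.59 to 0.71), against 0.32 (0.23 to 0.42) in Ctrl. The loading genes likewise were at 57.4 CPM in G1 and 46.5 CPM in G2M cells of Ctrl and at 192 and 119.9 CPM at 7-day. *B2M* in G1 was above G2M by 0.27 (0.17 to 0.37) in Ctrl and 0.32 (0.25 to 0.40) at 7-day. *TAP2* was the only member that was lower in G1 than in S cells of the 7-day library beyond counting error, at 10.5 against 16.7 CPM (-0.66, -1.07 to -0.26). Compared with Ctrl cells of the same phase, 7 members were called higher at 7-day among G1 cells, 7 among S cells and 8 among G2M cells, of 8 that met the UMI minimum, against 25.4%, 21.9% and 20.5% of all genes. None of the 8 was called lower in a phase, against 16.8%, 12.6% and 11.9% of all genes. *TAP2* was the one that missed in G1 and *HLA-F* the one that missed in S. At 1-day only *HLA-F* and *TAP1* were called higher among G1 cells, 2 of 8 members against 16.7% of all genes. Phases were assigned from cell cycle genes in the same cells, and the part of cycle composition in the library differences was not tested beyond these values.

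**Figure D3:**
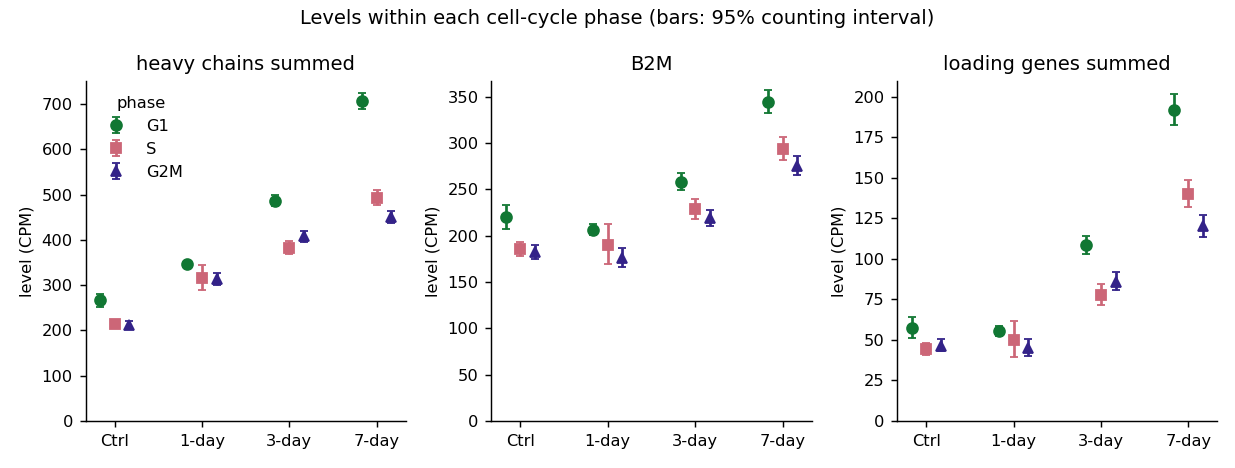
Level in CPM (vertical axes from 0) of the summed heavy chains, of *B2M* and of the summed loading genes in G1 (circles), S (squares) and G2M cells (triangles) of the 4 libraries, with 95% counting intervals. G1 cells are highest in every library, with intervals that overlap those of S cells at 1-day, and heavy chains reach 707 CPM in G1 against 450 CPM in G2M cells at 7-day.

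To compare cells of unequal depth, every cell was reduced at random to 18000 UMIs, with 844, 900, 677 and 549 cells deep enough from Ctrl to 7-day. The 4 heavy chains and *B2M* together had a median of 7 UMIs per cell in Ctrl (0 to 70), 9 at 1-day (1 to 45), 11 at 3-day (1 to 59) and 14 at 7-day (0 to 90). More than the Ctrl median was held by 39.5% of the Ctrl cells and by 66.8%, 83.5% and 91.1% (88.4% to 93.3%) after 1, 3 and 7 days. The 90th percentile of Ctrl, 12 UMIs, was exceeded by 8.29% of Ctrl and 62.5% (58.3% to 66.5%) of 7-day cells. The 10th percentile itself went from 3 to 8 UMIs between Ctrl and 7-day, so the low end of the distribution was higher along with the high end. At 7-day 1 of 549 thinned cells had 0 class I UMIs, and in Ctrl 2 of 844 did.

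**Figure D4:**
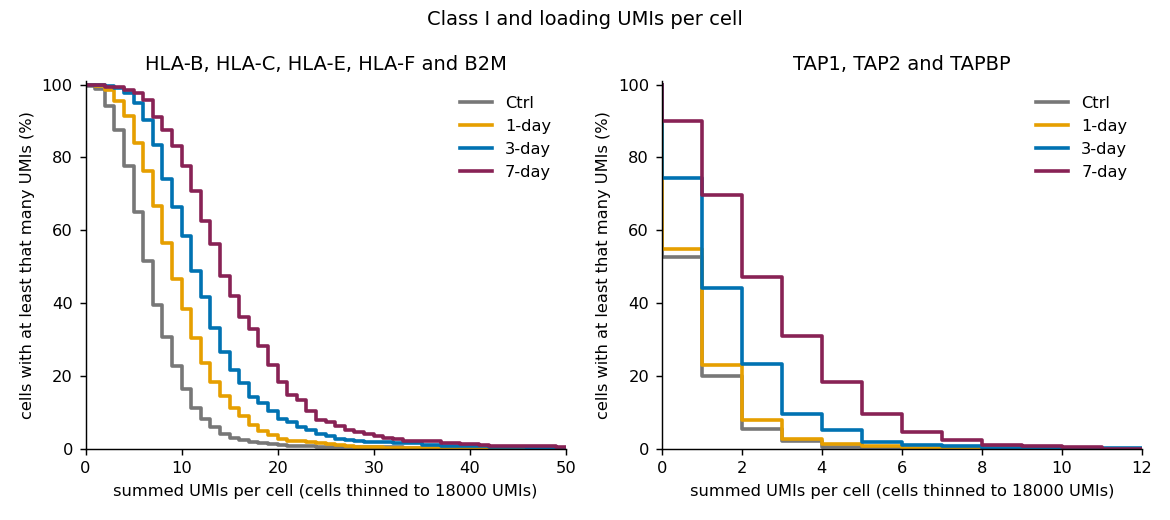
Share of cells in percent (vertical axes) with at least the number of UMIs on the horizontal axes, for the summed heavy chains and *B2M* (left) and for the summed loading genes (right), in cells thinned to 18000 UMIs. The curves are ordered Ctrl, 1-day, 3-day, 7-day over most of the range on the left, and on the right the Ctrl and 1-day curves lie close together.

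*HLA-C* had a UMI in 89.3% of thinned Ctrl cells and 97.8%, 99.6% and 98.9% at 1, 3 and 7 days, and *B2M* in 92.9%, 94.0%, 98.2% and 98.7%. *HLA-B* was detected in 48.8%, 47.6%, 58.8% and 79.1% of thinned cells. Its share was thus close to that of Ctrl at 1-day and highest at 7-day, as its CPM was. *TAPBP* was detected in 41.8%, 44.1%, 66.2% and 82.3% of thinned cells, *TAP1* in 9.36%, 14.0%, 21.0% and 35.0% and *TAP2* in 11.0%, 9.22%, 13.6% and 23.5%. *HLA-E* was detected in 32.1%, 47.3%, 54.4% and 53.9%. Without thinning the shares were higher, for *TAP1* 14.3%, 25.5%, 42.0% and 57.5%. *NLRC5* had a UMI in 2.44% to 4.92% of thinned cells and *HLA-F* in 6.75% to 10.9%, so for both most cells had 0 UMIs in every library.

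Spread across cells was given as the variance over the mean of thinned UMIs, which is about 1 for counting error alone. It was 2.03, 1.82, 2.50 and 2.61 for *HLA-C* and 1.89, 2.00, 1.88 and 3.24 for *B2M* from Ctrl to 7-day. For *HLA-B* it was 1.63, 1.62, 1.47 and 1.51 in the same order. It lay between 0.95 and 1.45 for *HLA-E*, *HLA-F*, *TAP1*, *TAP2*, *TAPBP* and *NLRC5* in every library. The 7-day value of *B2M* rests on the cell of highest *B2M* (74 thinned UMIs) and was 1.73 without it, a setting chosen after seeing the data. Pearson's r between pairs of *HLA-B*, *HLA-C*, *HLA-E* and *B2M* across thinned cells of 1 library was at most 0.26, with medians of 0.12, 0.10, 0.14 and 0.16 from Ctrl to 7-day, which in counts this sparse is no finding. Of 7161 genes detected in at least 20% of 7-day cells, the 5 outside the members with the highest r with summed class I included *PERP* (0.40), *C15orf48* (0.40) and *CD63* (0.39) over 549 cells. The median r of all 7161 genes was -0.0015. *PERP* encodes a desmosomal protein and *CD63* a tetraspanin of late endosomes. *CD63* ranked first at 3-day (0.33, 677 cells) and *ANXA2* first at 1-day (0.31, 900 cells). The cells of 1 library share its preparation and their cell cycle phase, and r is given as a description only.

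Other genes of the pathway were described from lists. Of 10 genes for peptide supply and trimming, 0 were called higher and 1 lower at 1-day (17.0% and 22.1% of all genes). At 3-day 1 was higher and 1 lower (18.8% and 18.0%), and at 7-day 3 were higher and 1 lower (22.2% and 15.3%). No list was tested against these shares. The called genes are named after their values were seen. Immunoproteasome subunits, which replace constitutive subunits and favour peptides with ends that fit class I, were not of one course. *PSMB9* was at 1.70, 1.94, 2.83 and 6.26 CPM, with a 7-day log2 ratio of 1.88 (1.42 to 2.37), and *PSMB8* was at 8.83, 7.19, 8.68 and 14.8 CPM (0.74, 0.51 to 0.97). *PSMB10* was highest in Ctrl (25.2 CPM against 6.28, 8.99 and 18.0 CPM under TGF-β1), with a log2 ratio of -2.01 (-2.24 to -1.78) at 1-day and -0.49 (-0.66 to -0.32) at 7-day, so that it was called lower at 1-day and 3-day. Of their constitutive counterparts, *PSMB6* was called lower at 7-day (165 to 99.1 CPM, -0.74), *PSMB5* went from 145 to 112 CPM, and *PSMB7* had 220.1 and 221 CPM in the same libraries. *ERAP2*, which trims peptides in the endoplasmic reticulum, was at 8.90, 8.07, 12.5 and 27.8 CPM, and its 7-day ratio was 1.64 (1.44 to 1.85).

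Among 4 chaperones, 2 were called higher at 1-day and at 3-day and 1 at 7-day, against 17.0%, 18.8% and 22.2% of all genes. None was called lower, against 22.1%, 18.0% and 15.3%. *CALR* (calreticulin) was highest at 1-day, at 171, 375, 271 and 309 CPM, and so was *PDIA3* (ERp57), at 70.7, 149, 117 and 102 CPM. *CANX* (calnexin) ranged from 145 to 178 CPM, and *TAPBPL*, the tapasin homolog TAPBPR, had 25 to 42 UMIs per library. *CALR* and *PDIA3* were thus highest in the 1-day library. Of the loading genes, *TAP1* was called higher in that library, and *TAPBP* and *TAP2* were within counting error of Ctrl. Pathway genes outside the members were not described within phases, although 77.3% of 1-day cells were in G1 against 18.5% of Ctrl cells.

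Of 15 regulators of class I transcription, 3 were called higher and 2 lower at 1-day (17.0% and 22.1% of all genes). At 3-day 5 were higher and 0 lower of 14 with enough UMIs (18.8% and 18.0%). At 7-day 7 were higher and 0 lower (22.2% and 15.3%). The 7 were *STAT2*, *IRF9*, *RFX5*, *NFKB1*, *RELA*, *JAK2* and *IFNGR2*. *IRF9*, a DNA-binding partner of STAT2, had the highest 7-day ratio in the list (1.63, 0.88 to 2.43) but only 21 UMIs in Ctrl and 55 at 7-day. *NFKB1* and *RELA*, the subunits of the main NF-kB dimer, had 38.1 and 28.8 CPM in Ctrl against 76.6 and 59.2 CPM after 7 days. *IRF1*, which binds the ISRE, was called lower at 1-day (11.0 to 6.56 CPM) and was at 10.3 and 10.6 CPM at 3 and 7 days. Of the interferon-γ receptor chains, *IFNGR2* had 22.5 CPM in Ctrl against 46.1 CPM after 7 days, and *IFNGR1*, the lowest 7-day ratio in the list, was at 33.0 and 28.3 CPM (-0.22, -0.36 to -0.08). *JAK1* was highest at 1-day, at 105, 219.9, 156 and 152 CPM.

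Of 8 class II genes, which serve CD4+ T cells, 3 met the UMI minimum at any time, namely *HLA-DMA*, *HLA-DMB* (at 1-day, within counting error) and *CD74*. *HLA-DRA* had 0 UMIs in all 4 libraries, which allows up to 0.09 to 0.12 CPM (3 counts), and *CIITA*, the class II transactivator, had 4 to 5 UMIs per library. *CD74*, the invariant chain, had 4, 5, 30 and 93 UMIs from Ctrl to 7-day and was called higher at 7-day. *HLA-DMA*, a chain of the class II peptide exchanger, had 66, 106, 107 and 63 UMIs and was called higher at 3-day (0.60, 0.14 to 1.06). Class II genes called higher against Ctrl were thus 0 of 2 with enough UMIs at 1-day, 1 of 1 at 3-day and 1 of 2 at 7-day. The shares of all genes were 17.0%, 18.8% and 22.2%. At each time 0 were called lower, against 22.1%, 18.0% and 15.3%. Of 5 NK ligands 3 had enough UMIs, namely *MICA*, *MICB* and *ULBP2*, stress ligands of the activating receptor NKG2D. Of these 2 were called higher at 1-day and 3 at 3-day and 7-day, against 17.0%, 18.8% and 22.2% of all genes. None was called lower, against 22.1%, 18.0% and 15.3%. *MICB* was at 2.07, 1.73, 5.32 and 9.85 CPM, with a 7-day ratio of 2.25 (1.85 to 2.68), and *MICA* was at 20.3, 38.0, 53.7 and 44.6 CPM.

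**Figure D5:**
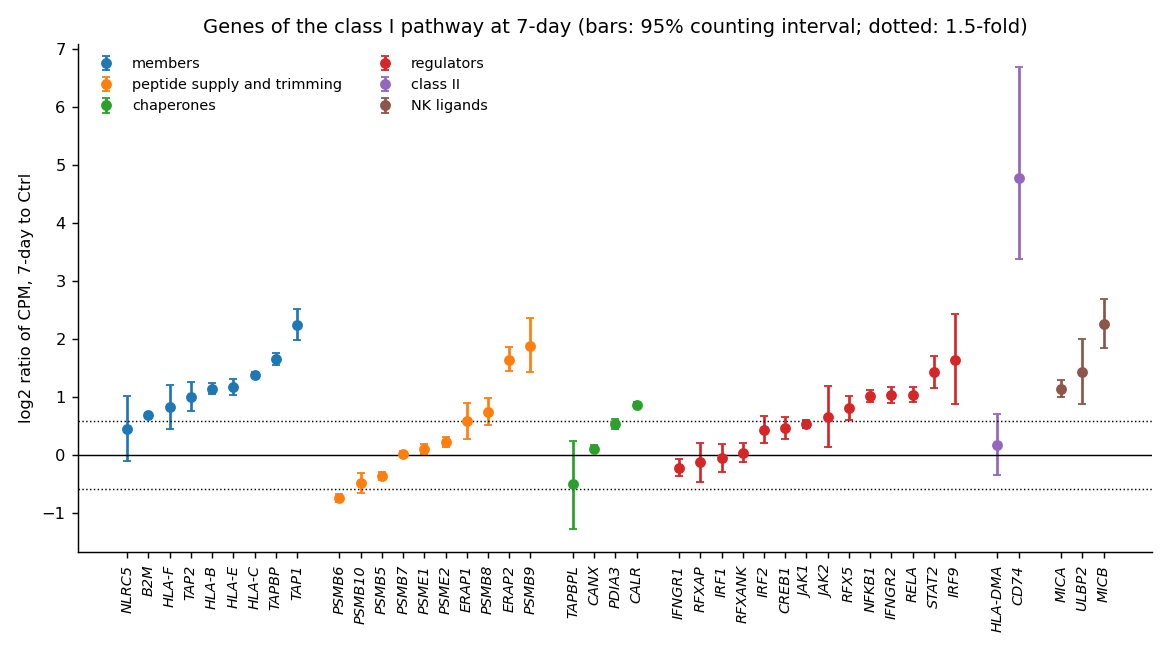
Log2 ratio of CPM of 7-day to Ctrl (vertical axis) for the members and the pathway genes reported here with at least 50 UMIs over both libraries, grouped by list and ordered within each list, with 95% counting intervals and dotted lines at 1.5-fold. The ratios of the members lie above 0, as do those of 54.8% of all genes that met the UMI minimum, and the *NLRC5* interval includes 0. The supply list spans *PSMB6* at -0.74 to *PSMB9* at 1.88.

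Genes of like course were sought among 3340 genes with at least 50 CPM in a library, as the smallest distance in the 3 log2 ratios to Ctrl. For *B2M* the 5 nearest were *TMEM259* (distance 0.076), *CRK*, *VGLL4*, *SCARB2* and *SLC44A1*, and for *TAP1* they were *IER3* (0.22), *MMD*, *EHD1*, *PHLDA1* and *MT1X*. *IER3* was at 62.0, 136, 193 and 295 CPM against 5.13, 9.68, 16.1 and 24.3 CPM of *TAP1*. The distance uses 3 points that share the Ctrl library, and it describes the courses only.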

How the data were processed

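Droplet-based 10x Genomics libraries of OVCA420 cells (Ctrl, 1-day, 3-day and 7-day, 1 library each) were analysed. Reads had been aligned by the authors to GRCh38 (Cell Ranger, version 2.0.1 in the submitters' processing notes), who deposited raw UMI counts per gene and cell. The annotation release and the treatment of reads that match several class I genes are not given in the sources used here. The first 3170 of 10710 listed barcodes were read. Cells with more than 200 genes and at most 20% mitochondrial UMIs were retained (3144). Scrublet (scanpy 1.11.5) marked 40 cells (1.27%), retained except in an alternative.

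UMIs were summed per library and given as CPM with exact Poisson 95% intervals. Log2 ratios have exact conditional binomial intervals and shares of cells exact (Clopper-Pearson) binomial intervals. All cover counting error only, and PCR duplicates were already collapsed into UMIs. With 1 library per group no test was made. Calls used 1.5-fold, an interval without 0 and at least 50 UMIs over both libraries. For shares and correlations cells were thinned to 18000 UMIs, and correlations used the natural log of 1 plus 10000 times the UMIs over the cell's total. Phases were scored in scanpy with the lists from Seurat 5.3.0. Python 3.11.15, scipy 1.17.1 and R 4.3.3 were used. The ratio intervals and the call rule were run on library sums simulated with Poisson error, and thinning was checked on cells of these data. Spread between cells was not simulated, and the other steps were not checked in this way.

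The members and the gene lists were chosen with earlier results of these data known. All 9 members are named. Of each pathway list, the highest and lowest 7-day ratios and genes of at least 100 CPM are named, up to 4, and other named genes were added after their values were seen. Genes of like pattern are the 5 nearest. Some genes that these rules select are not reported here. Promoters are from RefSeq (GRCh38.p14) and gene positions from GENCODE for GRCh38, matched by Ensembl identifier. Alternatives were a 10% mitochondrial limit, doublets left out, other scalings, means over cells, thinning, G1 cells only, 2-fold calls and other UMI minimums. S cells only, G2M cells only and the spread of *B2M* without its highest cell were added after seeing the data. The SCTransform normalization of the study was not applied, and its tumor data were not analysed here.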

Additional observations from a re-analysis of the deposited data

How the results depend on the processing

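Over 9 alternatives at each of 3 time points, 36 of 54 log2 ratios of the summed heavy chains and loading genes stayed within the counting interval, 16 moved beyond it with the same sign and 2 changed sign. Heavy chains at 1-day (0.61) were 0.69 with median-of-ratios scaling, 0.66 in thinned cells, 0.38 in G1 cells and 0.56 in G2M cells. At 3-day (0.97) they were 0.89 with totals without mitochondrial and ribosomal protein genes, 1.03 in thinned cells, 0.87 in G1 and 0.85 in S cells. At 7-day (1.30) they were 1.24 with median-of-ratios scaling, 1.23 without mitochondrial and ribosomal genes, 1.41 in G1, 1.21 in S and 1.08 in G2M cells. Loading genes at 7-day (1.65) were 1.77 in thinned and 1.37 in G2M cells, and at 3-day (0.97) 0.81 in S cells. At 1-day (0.16) they were -0.051 in G1 and -0.044 in G2M cells, both within counting error of Ctrl. Single members gave 243 cases, those within counting error of Ctrl included. Where the interval left out 0, sign changed in 4 cases. These were *B2M* at 1-day (-0.091 in G1, -0.050 in G2M cells), *TAP1* at 1-day (-0.69 in S cells) and *TAP2* at 3-day (-0.035 in G1 cells). In all 4 the interval within the phase included 0. Members within counting error of Ctrl changed sign in 12 more, *HLA-B* (0.29 in G2M cells), *TAP2*, *TAPBP* (-0.38 in G2M cells) and *NLRC5* at 1-day and *NLRC5* at 3-day. The cause was not tested. Members called higher at 1-day numbered 2 in G1 cells (16.7% of all genes) and 1 at 2-fold (9.87%). At 3-day 3 were called higher at 2-fold (10.5%). Of the members called higher at 7-day, *B2M* (1.60-fold) and *HLA-F* (1.76-fold) fell short of 2-fold, and *TAP2* was at 2.00-fold. At 2-fold 12.8% of all genes were called higher at 7-day. In every alternative 0 members were called lower. The share of all genes called lower was 8.57% (7-day, 2-fold) to 23.6% (1-day, without mitochondrial and ribosomal protein genes). The median share of cells with a UMI over the 9 members (47.5%, 65.2%, 81.4% and 84.4% from Ctrl to 7-day) was 32.1%, 44.1%, 54.4% and 53.9% after thinning, since thinning removes UMIs. No scaling moved the median log2 ratio of all genes by more than 0.084. No paired analysis was possible because each time point is 1 library. Depth limits *NLRC5* and *HLA-F*, and leaving out a replicate was not possible.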

Other observations

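The cells with the most class I UMIs were looked at after the values were seen. In the 7-day library the highest thinned cell had 90 UMIs of heavy chains and *B2M*, of which 74 were *B2M*, and it also held 34 UMIs of *ISG15*, 7 of *IFIT1* and 7 of *IRF1*, which are interferon-induced genes. It was in G1 and was not marked as a doublet. Of the other members it held 10 UMIs of *HLA-C*, 4 of *TAPBP*, 3 each of *HLA-B* and *HLA-F*, and 1 of *TAP2*. It held 0 of *HLA-E*, *TAP1* and *NLRC5*. The next 7-day cell had 56 class I UMIs with 1 of *ISG15* and 0 of *IFIT1* and *IRF1*. In Ctrl, the cell with 70 class I UMIs held 2 UMIs of *ISG15* and 0 of *IFIT1*, and in the 1-day and 3-day libraries the highest cells (45 and 59) held 3 and 1 of *ISG15* and 0 of *IFIT1*.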
